A study of Mus musculus with 9 samples.

Results

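The genes described here are 9 members of the amino acid stress response controlled by Atf4, chosen by name: Atf4, Ddit3, Trib3, Chac1, Sesn2, Asns, Psat1, Phgdh and Mthfd2. They are 9 of the 26214 genes in the table of normalized counts, and all 9 passed the filter on low values. RNA was sequenced from adipose stromal cells (ASCs) of subcutaneous adipose tissue (ScAT) and from fibro-adipogenic progenitors (FAPs) of quadriceps muscle, both of C57Bl/6 mice. ASCs (3 libraries) and FAPs (2 libraries) came from mice that received NaCl in the quadriceps, and injured FAPs (3 libraries) from mice that received 50% glycerol, which damages myofibers. All mice were males aged 8 to 12 weeks, and cells were taken on day 1 after the injection. The study describes cells pooled from 3 animals, and libraries of a group may share animals, so the p-values measure only the spread between these libraries. Cells were depleted of CD31+ and CD45+ cells and then selected for Sca-1 with magnetic beads, after digestions that differed between tissues (collagenase NB4 for ScAT, collagenase B with dispase II for muscle). Tissue and digestion cannot be told apart in any comparison with ASCs. In injured FAPs against ASCs the injection (glycerol or NaCl) differs as well and cannot be told apart from them. A single library of CD31+CD45+ cells from glycerol-injected quadriceps entered no test.

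Atf4 is the transcription factor at the centre of the integrated stress response. Kinases that sense amino acid shortage, unfolded proteins in the endoplasmic reticulum (ER), viral RNA or heme shortage phosphorylate the translation factor eIF2, which slows protein synthesis in general while translation of the Atf4 mRNA increases. Control is thus largely translational, and the mRNA level of Atf4 does not measure the amount of its protein. Target genes serve amino acid supply (Asns, Psat1, Phgdh, Mthfd2) or the stress programme itself (Ddit3, Trib3, Chac1, Sesn2).

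Atf4 and its partners bind composite elements whose core can be written TGATGNAA. This string was searched on both strands of the RefSeq promoter windows (GRCm38.p6), which run from 250 bases before to 50 bases after each annotated start. All 9 members had a window, with 10 windows in all because Psat1 has 2. The string was present in 3 of the 9 members, Chac1, Asns and Trib3. It was present in 1304 of all 32851 windows (3.97%), which is 1219 of 27025 genes (4.51%), and in 10 of 33 genes of the wider pathway that had a window. Each is printed 5′ to 3′ along the gene with the matched string in capitals, which in Chac1 and Trib3 reads as its reverse complement.
Chac1, chr2:119351038-119351067, plus strand: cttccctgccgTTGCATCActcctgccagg
Asns, chr6:7693214-7693243, minus strand: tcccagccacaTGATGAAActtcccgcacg
Trib3, chr2:152344028-152344057, minus strand: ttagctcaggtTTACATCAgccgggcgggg
The match began 193 bases before the start in Chac1, 23 bases before it in Asns, and at base 15 of the transcribed part in Trib3, counted from the RefSeq starts. By the GENCODE gene spans, the match in Asns lies inside the gene and that in Trib3 lies before it. A match is a string of letters and not a shown binding site. The windows of Psat1 and Mthfd2 lie inside the gene spans of the GENCODE annotation, and regions further from each start were not searched.

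By the GENCODE annotation (GRCm38), Atf4 lies at chr15:80255184-80257541, Ddit3 at chr10:127290774-127296288, Trib3 at chr2:152337422-152344032, Chac1 at chr2:119351229-119354381 and Sesn2 at chr4:132492032-132510501. Asns lies at chr6:7675169-7693254, Psat1 at chr19:15904678-15947337, Phgdh at chr3:98313170-98339990 and Mthfd2 at chr6:83305691-83325908. The annotation holds 2 gene entries named Ddit3, and the span of the first is given. The values of Phgdh are uncertain, since 63.1% of the 50-base stretches of its transcript also occur in its pseudogenes. The gene span of Ddit3 overlaps by 68 bases with that of a gene on the opposite strand. It also overlaps by 15 bases with that of a gene absent from the table, on the opposite strand too. Spans of other genes absent from the table overlap with Sesn2 (6089 bases, same strand), Mthfd2 (2799 bases, same strand) and Psat1 (556 bases, opposite strand). The part of reads of all these genes in the values was not tested.

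Values are taken as counts divided by a size factor of the library. The 8 libraries tested held between 24052508 (FAP replicate 1) and 27481573 reads (ASC replicate 1). Groups were compared with limma on log2(value + 1) in a single fit, with Benjamini-Hochberg adjustment over 13601 genes. To be called, a gene needed an adjusted p under 0.05 as well as a log2 fold change above 0.58 or below −0.58. Adjusted p-values below come from that fit unless an alternative is named, and SE is the standard error of the log2 fold change. The comparison of ASCs with FAPs and that of injured FAPs with FAPs share the 2 FAP libraries. In bulk RNA, fewer expressing cells and less RNA per cell cannot be told apart.

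After glycerol injury, the enzymes among the members rose while the mRNA of Atf4 itself did not pass the threshold. In injured FAPs against FAPs, 5 of the 9 members were higher (Asns, Psat1, Phgdh, Mthfd2 and Sesn2), against 24.9% of all genes tested, and 2 were lower (Ddit3 and Trib3), against 27.7%. The median log2 fold change was 0.75 for the members and −0.05 for all genes. In ASCs against FAPs, 6 members were higher (Atf4, Trib3, Sesn2, Asns, Psat1 and Mthfd2), against 23.4% of all genes, and 1 was lower (Ddit3), against 23.8%. The median was 1.55 for the members and 0.00 for all genes. In injured FAPs against ASCs, 4 members were higher (Asns, Psat1, Phgdh and Mthfd2), against 25% of all genes, and 4 were lower (Atf4, Trib3, Chac1 and Sesn2), against 25.8%. The median there was −0.39 for the members and 0.02 for all genes.

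**Figure D1:**
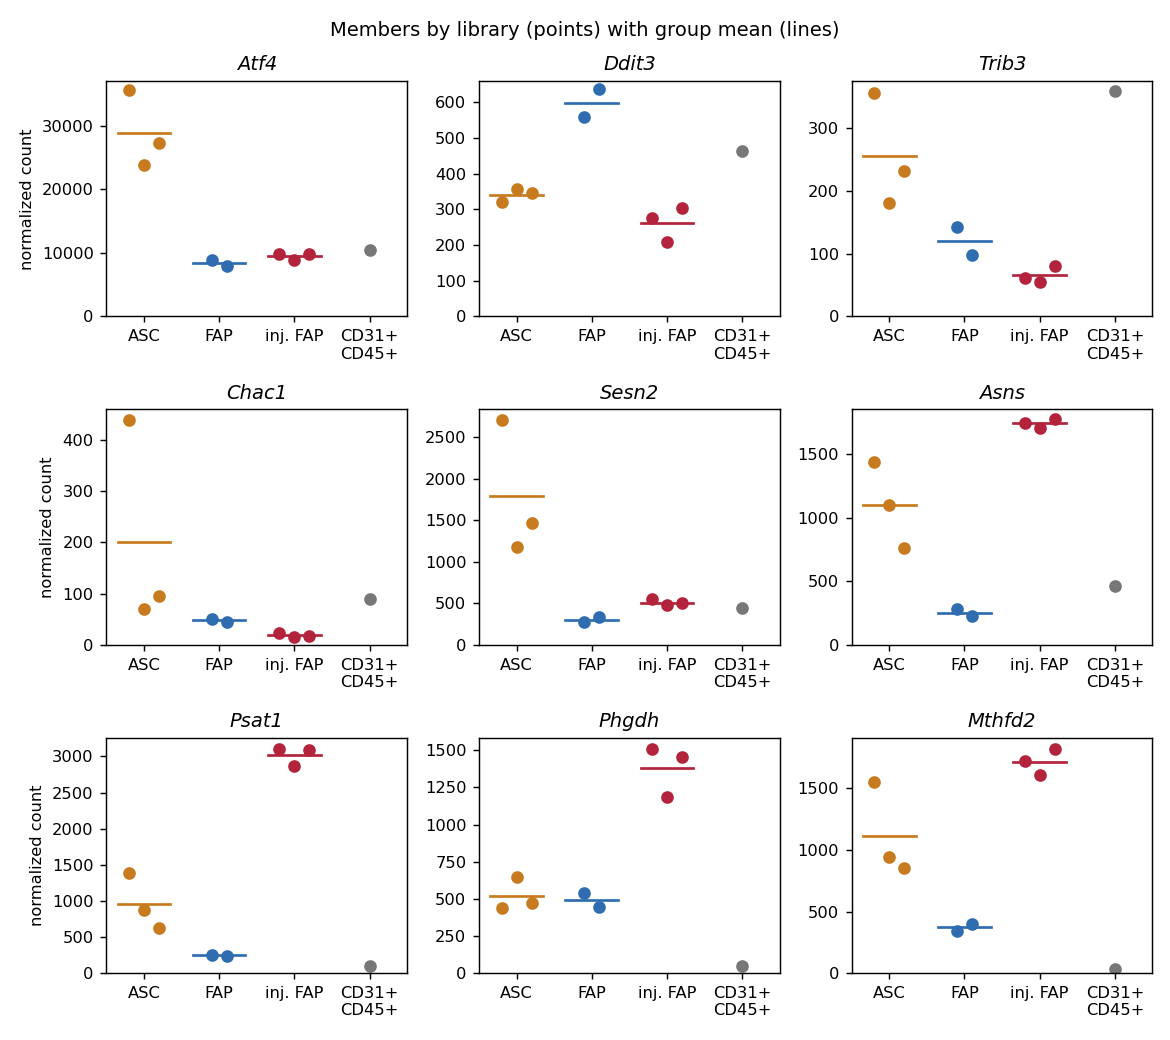
Normalized counts (y axis, from 0) of the 9 members in each library, by group on the x axis. Points are libraries and lines are group means. Asns, Psat1, Phgdh and Mthfd2 are highest in the 3 injured FAP libraries, Atf4 and Sesn2 are highest in the 3 ASC libraries, and Ddit3 is highest in the 2 FAP libraries.

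Atf4 was listed at 35670.1, 23799 and 27269 in ASC replicates 1, 2 and 3, in that order as in all values below. In FAPs it was 8824 and 7986, and in injured FAPs 9797, 8861 and 9778. Every ASC library lay above every FAP and injured FAP library, whereas the lowest injured FAP library lay just above the highest FAP library. Atf4 was 3.39-fold higher in ASCs than in FAPs (log2 fold change 1.76, SE 0.16, adjusted p = 7.52e-06). With injury the log2 fold change was 0.17, with a 95% confidence interval of −0.18 to 0.52 and an adjusted p of 0.349, which did not pass. Injured FAPs were 3.01-fold lower than ASCs (log2 fold change −1.59, SE 0.14, adjusted p = 4.34e-06). Under quantile normalization, the differences involving ASCs were smaller, 0.94 against FAPs and −0.87 for injured FAPs against ASCs, and both remained past the threshold.

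Ddit3 encodes Chop, a transcription factor that acts with Atf4 and favours cell death under prolonged stress. Its values were 320.1, 356 and 345 in ASCs, 558 and 638 in FAPs and 275, 209 and 304 in injured FAPs. Both FAP libraries were higher than each of the other 6. Ddit3 fell with injury (log2 fold change −1.20, SE 0.17, adjusted p = 1.25e-04) and was also lower in ASCs than in FAPs (log2 fold change −0.81, SE 0.17, adjusted p = 0.00189). Between injured FAPs and ASCs the log2 fold change of −0.39 was under the size threshold (adjusted p = 0.0396), and it turned to 0.31 when values were scaled to the library total in place of the size factors (total-count scaling).

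Trib3 encodes a pseudokinase that binds Atf4 and Chop and limits the response. It was listed at 356, 180.1 and 231 in ASCs, 143 and 97.8 in FAPs and 62.0, 54.2 and 80.1 in injured FAPs. The groups did not overlap, and ASCs were highest and injured FAPs lowest. Trib3 fell with injury (log2 fold change −0.86, SE 0.30, adjusted p = 0.0268), a call that was lost without FAP replicate 1 (−0.59), without injured FAP replicate 1 (−0.83) or 2 (−0.74), and under quantile normalization (−0.56). Over all alternatives its adjusted p by limma, edgeR or DESeq2 ran from 0.0065 to 0.205. It was higher in ASCs than in FAPs (log2 fold change 1.05, SE 0.30, adjusted p = 0.0116), which was lost without FAP replicate 2 (0.78) and under total-count scaling (0.48), with adjusted p-values of 0.00194 to 0.14 over the alternatives. The difference between injured FAPs and ASCs was larger (log2 fold change −1.91, SE 0.27, adjusted p = 1.15e-04).

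Chac1 encodes an enzyme that degrades glutathione and is a sensitive target of the pathway. Values were 437, 69.1 and 95.4 in ASCs, 51.3 and 45.2 in FAPs and 23.5, 16.3 and 18.3 in injured FAPs. ASC replicate 1 stood far above the other 7 libraries, and the 3 injured FAP libraries were the lowest. With injury the log2 fold change of −1.29 did not pass (SE 0.62, adjusted p = 0.0911). The same difference passed without ASC replicate 1 (−1.29) or with only the groups compared, since the 3 groups share an estimate of the spread, and its adjusted p ran from 0.00159 to 0.259 over the alternatives. In ASCs against FAPs it was 1.55 (adjusted p = 0.0519), just short of the threshold, and 0.74 without ASC replicate 1. It passed without ASC replicate 2 (2.06) or 3 (1.83), under quantile normalization, with a replicate block, and by edgeR and DESeq2, and its adjusted p ran from 0.00234 to 0.181. Injured FAPs were lower than ASCs (log2 fold change −2.83, SE 0.56, adjusted p = 0.00112), and the value was −2.03 without that library.

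Sesn2 encodes sestrin 2, a leucine sensor that restrains mTORC1. It was listed at 2709.8, 1184 and 1465 in ASCs, 275 and 332 in FAPs and 552, 479 and 499.6 in injured FAPs. ASC libraries were all above the others, with replicate 1 highest, and every injured FAP library was above both FAP libraries. Sesn2 was 5.53-fold higher in ASCs than in FAPs (log2 fold change 2.47, SE 0.28, adjusted p = 3.72e-05) and lower in injured FAPs than in ASCs (log2 fold change −1.72, SE 0.25, adjusted p = 1.45e-04). The rise with injury was smaller (log2 fold change 0.75, SE 0.28, adjusted p = 0.0351). It no longer passed when any single FAP or injured FAP library was left out, with adjusted p-values of 0.056 to 0.182 by limma, nor with no filter on low values (adjusted p = 0.0544).

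**Figure D2:**
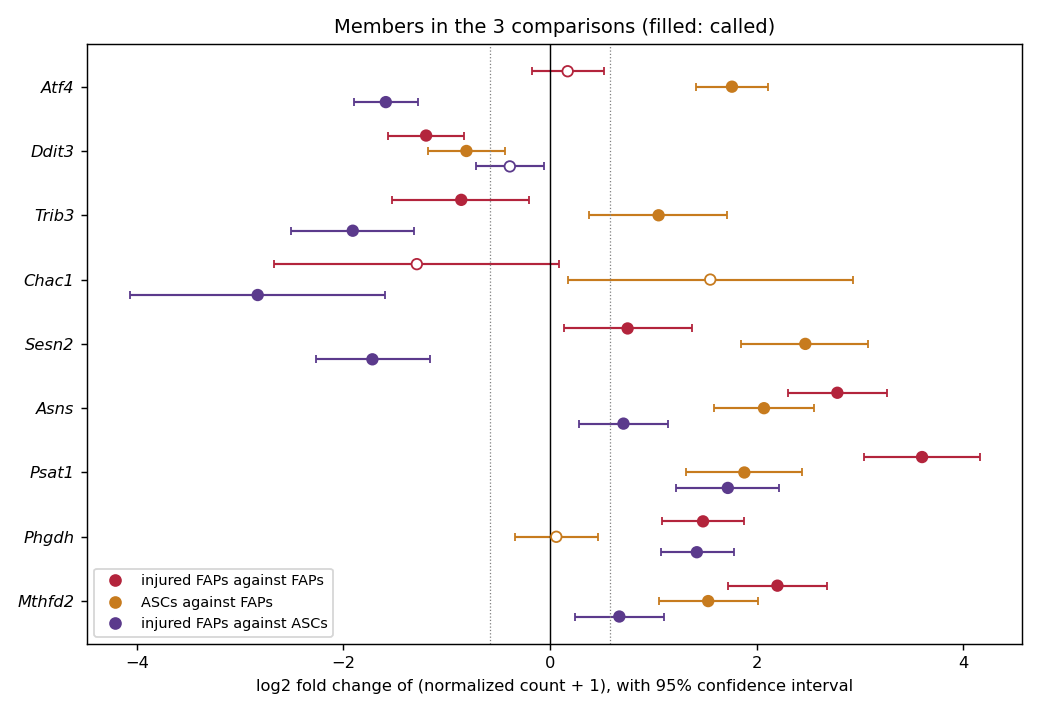
Log2 fold changes of the 9 members (x axis) with 95% confidence intervals in the 3 comparisons, by gene on the y axis. Filled points were called, open points were not, and dotted lines mark 0.58 either way. The enzymes lie to the right in injured FAPs against FAPs, up to 3.60 for Psat1, while Atf4 lies at 0.17 and Ddit3 at −1.20.

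The 4 enzymes form the supply side of the response. Phgdh catalyses the first step of serine synthesis from glycolysis and Psat1 the next, Asns makes asparagine, and Mthfd2 is a mitochondrial enzyme that oxidizes one-carbon units bound to folate. Psat1 was listed at 1392, 873 and 629 in ASCs, 259.6 and 236 in FAPs and 3105, 2864 and 3084 in injured FAPs. The 3 groups did not overlap, with injured FAPs highest and FAPs lowest. Psat1 rose 12.1-fold with injury, the largest change among the members (log2 fold change 3.60, SE 0.25, adjusted p = 1.58e-06). It was also higher in ASCs than in FAPs (log2 fold change 1.88, SE 0.25, adjusted p = 1.23e-04) and higher in injured FAPs than in ASCs (log2 fold change 1.72, SE 0.23, adjusted p = 7.32e-05).

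Asns was 1433, 1101 and 758 in ASCs, 279 and 229.6 in FAPs and 1746, 1702 and 1772 in injured FAPs. Injured FAP libraries lay close together and above all ASC libraries, which in turn lay above both FAP libraries. The rise with injury was 6.86-fold (log2 fold change 2.78, SE 0.22, adjusted p = 2.82e-06), and ASCs were 4.19-fold above FAPs (log2 fold change 2.07, SE 0.22, adjusted p = 2.21e-05). The smaller excess of injured FAPs over ASCs (log2 fold change 0.71, SE 0.19, adjusted p = 0.00776) fell under the size threshold without ASC replicate 3 (0.47).

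For Mthfd2 the values were 1553, 940.1 and 849.9 in ASCs, 346 and 399.8 in FAPs and 1721, 1607 and 1817 in injured FAPs. The order of the groups was that of Asns, and the highest ASC library came close to the lowest injured FAP library. Mthfd2 rose 4.59-fold with injury (log2 fold change 2.20, SE 0.22, adjusted p = 1.20e-05) and was 2.88-fold higher in ASCs than in FAPs (log2 fold change 1.53, SE 0.22, adjusted p = 1.74e-04). The difference between injured FAPs and ASCs (log2 fold change 0.67, SE 0.19, adjusted p = 0.0107) was no longer called without ASC replicate 2 or 3 (0.58 and 0.50).

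Phgdh differed from the other enzymes in ASCs. It was listed at 437, 647 and 476 in ASCs, 541 and 447 in FAPs and 1509.6, 1186 and 1454 in injured FAPs. Values of ASCs and FAPs overlapped, and every injured FAP library was above them. Phgdh rose 2.79-fold with injury (log2 fold change 1.48, SE 0.18, adjusted p = 4.99e-05) and was higher in injured FAPs than in ASCs (log2 fold change 1.42, SE 0.16, adjusted p = 2.46e-05). Between ASCs and FAPs the log2 fold change was 0.06, with a 95% confidence interval of −0.34 to 0.46 (adjusted p = 0.793), and its sign changed with the scaling, to −0.51 under total-count scaling and −0.11 with a common 75th percentile.

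The top 100 genes of a library held between 40.3% and 43.1% of its total in ASCs, 35.9% and 36.3% in FAPs, and between 24.7% and 26.1% in injured FAPs. Total-count scaling, chosen after seeing the data, moved the median log2 fold change of all genes by −0.57 in ASCs against FAPs, 0.70 in injured FAPs against ASCs and 0.13 in injured FAPs against FAPs. With a common 75th percentile these shifts were −0.17, 0.12 and −0.05. Under total-count scaling, 19.8% of the calls in ASCs against FAPs were higher, against 49.6% with the size factors, and 81.7% of those in injured FAPs against ASCs, against 49.3%. The 4 enzymes stayed called as higher in injured FAPs than in FAPs under each of the 3 other scalings, at 3.55 to 3.75 for Psat1, 2.73 to 2.91 for Asns, 2.15 to 2.33 for Mthfd2 and 1.43 to 1.61 for Phgdh. Differences from ASCs moved more under total-count scaling, in injured FAPs from 0.71 to 1.41 for Asns, 0.67 to 1.37 for Mthfd2, −1.72 to −1.02 for Sesn2, −1.91 to −1.22 for Trib3 and −1.59 to −0.89 for Atf4. Against FAPs, the values of ASCs moved from −0.81 to −1.38 for Ddit3 and from 1.53 to 0.96 for Mthfd2.

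Levels can be compared between genes per length of exon, in normalized counts per kb, with exon lengths from the GENCODE annotation. In FAPs the mean per kb was 4873 for Atf4 and 672 for Ddit3, followed by Phgdh (261), Mthfd2 (179), Asns (118), Sesn2 (87.3), Psat1 (84.4), Trib3 (59.3) and Chac1 (29.5). The ranges of the 2 libraries overlapped for Sesn2 and Psat1. In injured FAPs Atf4 was again first (5495), and the enzymes came next, with Psat1 at 1028, Mthfd2 at 823, Asns at 805 and Phgdh at 731 per kb. Mthfd2, Asns and Phgdh were not separated by the spread of the 3 libraries, while Psat1 lay above all of them. Ddit3 (295), Sesn2 (147), Trib3 (32.3) and Chac1 (11.8) followed. In ASCs Atf4 reached 16761 per kb, and Mthfd2 (534), Sesn2 (514) and Asns (508) were next, with overlapping ranges. Ddit3 thus moved from second place in FAPs to sixth in injured FAPs, and Psat1 from seventh to second.

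**Figure D3:**
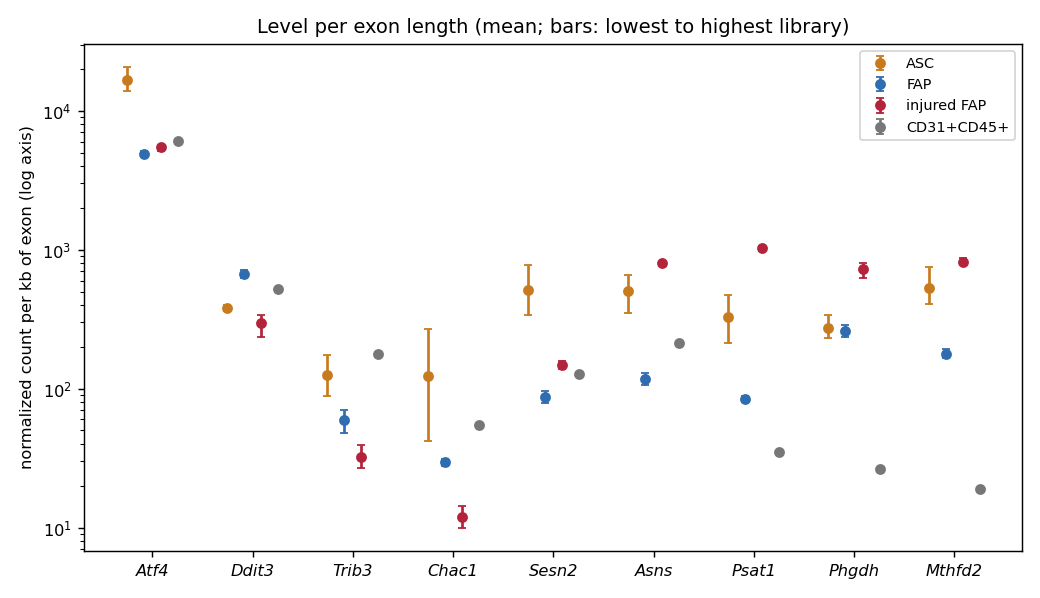
Normalized count per kb of exon (log axis) of each member in the 4 groups. Points are group means and bars run from the lowest to the highest library. Atf4 is the most abundant member in all groups, from 4873 per kb in FAPs to 16761 in ASCs.

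The 5 genes most like Atf4 by Pearson correlation of log2(value + 1) over the 8 libraries were Procr (r = 0.999), Gfpt2 (0.998), Irgm1 (0.998), Ifi203 (0.998) and Slc35f5 (0.997), among 10592 other genes with a mean of at least 100. Chac1, with a mean of 94.6, was not compared. None of the other members was among the 5, and the closest were Sesn2 (0.97) and Trib3 (0.87). The libraries form 3 groups, so the correlation describes high values in ASCs, highest in replicate 1, and no p is given.

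The wider pathway was described with 5 lists of 42 genes. In injured FAPs against FAPs 16 of the 42 were higher and 11 lower (median log2 fold change 0.31). In ASCs against FAPs 21 were higher and 3 lower (median 0.60). In injured FAPs against ASCs 9 were higher and 18 lower (median −0.52). Over all genes 24.9% were higher and 27.7% lower with injury, while the shares were 23.4% and 23.8% for ASCs set against FAPs and 25% and 25.8% for injured FAPs set against ASCs, and counts of each list are to be read beside these shares. The count of pathway genes lower with injury and that of those higher in injured FAPs than in ASCs were near the shares over all genes.

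Among the enzymes of amino acid and one-carbon metabolism other than the members, 6 of 10 rose with injury (all genes 24.9%) and 1 fell (27.7%). Mthfd1l, which acts after Mthfd2 in mitochondria, was 85.6 and 77.1 in FAPs and 1241, 1167 and 1181 in injured FAPs, and rose 14.6-fold (log2 fold change 3.86, SE 0.26, adjusted p = 1.30e-06). Shmt2, the mitochondrial enzyme that takes one-carbon units from serine, rose from 1362 and 1251 to 4364, 4000.5 and 3977 (log2 fold change 1.65, SE 0.15, adjusted p = 6.43e-06). Both were also higher in injured FAPs than in ASCs (3.80, adjusted p = 3.73e-07 for Mthfd1l and 1.55, adjusted p = 3.27e-06 for Shmt2). For ASCs against FAPs, 4 of the 10 were higher, among them Got1 (1.56, adjusted p = 4.31e-05) and Psph (0.76, adjusted p = 0.00885), which completes serine synthesis after Psat1, and Pycr1 was lower (−0.59, adjusted p = 0.00704). The call of Psph was lost without ASC replicate 1 (0.56) or FAP replicate 1 (0.72) and under total-count scaling (0.20). That of Pycr1 was lost without ASC replicate 1 (−0.47) or 3 (−0.58), without FAP replicate 1 (−0.51) and by DESeq2.

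Of 9 amino acid transporters 4 rose with injury (all genes 24.9%) and 1 fell (27.7%). In ASCs 6 were higher than in FAPs (23.4%) and 1 lower (23.8%). Slc7a5, the large neutral amino acid transporter, was 5434, 1629 and 1968 in ASCs, 587 and 597 in FAPs and 4125, 3831 and 4090.4 in injured FAPs. ASC replicate 1 stood above the other ASC libraries, as it did for Sesn2 and Chac1. Slc7a5 rose with injury (log2 fold change 2.76, SE 0.39, adjusted p = 1.38e-04), as did the arginine and lysine transporter Slc7a1 (1.43, adjusted p = 4.35e-04). Slc3a2, the heavy chain that partners with Slc7a5, was higher in ASCs than in FAPs (2.74, adjusted p = 1.21e-06), like Slc7a1 (2.72, adjusted p = 6.96e-06). Slc1a4 was lower in ASCs than in FAPs (−0.73, adjusted p = 8.84e-04), a call lost without FAP replicate 2 (−0.55), and higher in injured FAPs than in ASCs (0.98, adjusted p = 3.86e-05). Slc3a2 (−1.82, adjusted p = 4.98e-06) and Slc38a2 (−1.57, adjusted p = 3.55e-05) were lower in injured FAPs than in ASCs.

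Of 6 transcription factors that act with Atf4, 3 fell with injury (all genes 27.7%) and 1 rose (24.9%). Atf3 fell from 12751 and 10249.9 to 3710.5, 3219 and 4228 (log2 fold change −1.63, SE 0.23, adjusted p = 1.36e-04) and Nupr1 from 5335 and 4780.2 to 2149, 1884 and 1759.6 (log2 fold change −1.39, SE 0.14, adjusted p = 1.33e-05). Cebpb rose (0.66, adjusted p = 0.00152), which dropped under the size threshold without FAP replicate 2 (0.51) and under quantile normalization (0.55). Against FAPs, ASCs had higher Cebpb (1.96, adjusted p = 1.33e-06) and Atf3 (1.24, adjusted p = 9.71e-04), the latter not under quantile normalization (0.47). Injured FAPs were lower than ASCs in Atf3 (−2.87, adjusted p = 9.66e-07) and Nupr1 (−1.97, adjusted p = 4.42e-07).

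Of 8 eIF2 kinases, their regulators and phosphatase subunits, 2 rose and 2 fell with injury, near the shares over all genes. Eif2ak2, the kinase Pkr that senses double-stranded RNA, rose from 378 and 327 to 1033, 1014 and 1104 (log2 fold change 1.57, SE 0.14, adjusted p = 7.57e-06), and Eif2ak4, the amino acid sensor Gcn2, rose less (0.85, adjusted p = 3.80e-04). Eif2ak3, the ER kinase Perk, fell (−0.85, adjusted p = 5.72e-04). Ppp1r15a, the stress-induced subunit that directs removal of phosphate from eIF2, fell from 7369 and 7226 to 3931, 3181 and 3302 (log2 fold change −1.08, SE 0.12, adjusted p = 2.93e-05). For ASCs against FAPs, 4 of the 8 were higher and 0 lower, led by Impact, an inhibitor of Gcn2 activation (2.67, adjusted p = 1.58e-05), and Ppp1r15b (2.11, adjusted p = 5.67e-07). Gcn1 (0.85, adjusted p = 1.42e-04) and Eif2ak4 (0.68, adjusted p = 6.71e-04) were higher, and Impact (−2.71, adjusted p = 4.06e-06) and Ppp1r15a (−2.66, adjusted p = 3.36e-08) lower, in injured FAPs than in ASCs. Under quantile normalization Eif2ak4 fell short of the size threshold there (0.52). Phosphorylation of eIF2 was not measured.

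The 9 other effectors and secreted factors were divided, with 3 higher (all genes 24.9%) and 4 lower (27.7%) after injury. Xpot, a tRNA exporter (1.09, adjusted p = 8.30e-05), and the secreted stress cytokine Gdf15 (0.98, adjusted p = 0.0135) rose. The call of Gdf15 was lost without FAP replicate 1 (0.92) or 2 (1.03) or injured FAP replicate 1 (0.84). Klhl24 (−1.57, adjusted p = 9.70e-06) and Vldlr, a lipoprotein receptor (−1.54, adjusted p = 9.83e-07), fell. For ASCs against FAPs, Gdf15 (2.08, adjusted p = 1.67e-04) and Vldlr (1.51, adjusted p = 1.02e-06) were higher and Ddit4 (−1.05, adjusted p = 0.00531) lower. For injured FAPs against ASCs, Ddit4 was higher (1.59, adjusted p = 1.42e-04) and Vldlr (−3.05, adjusted p = 6.03e-09) and Klhl24 (−1.30, adjusted p = 1.26e-05) were lower.

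**Figure D4:**
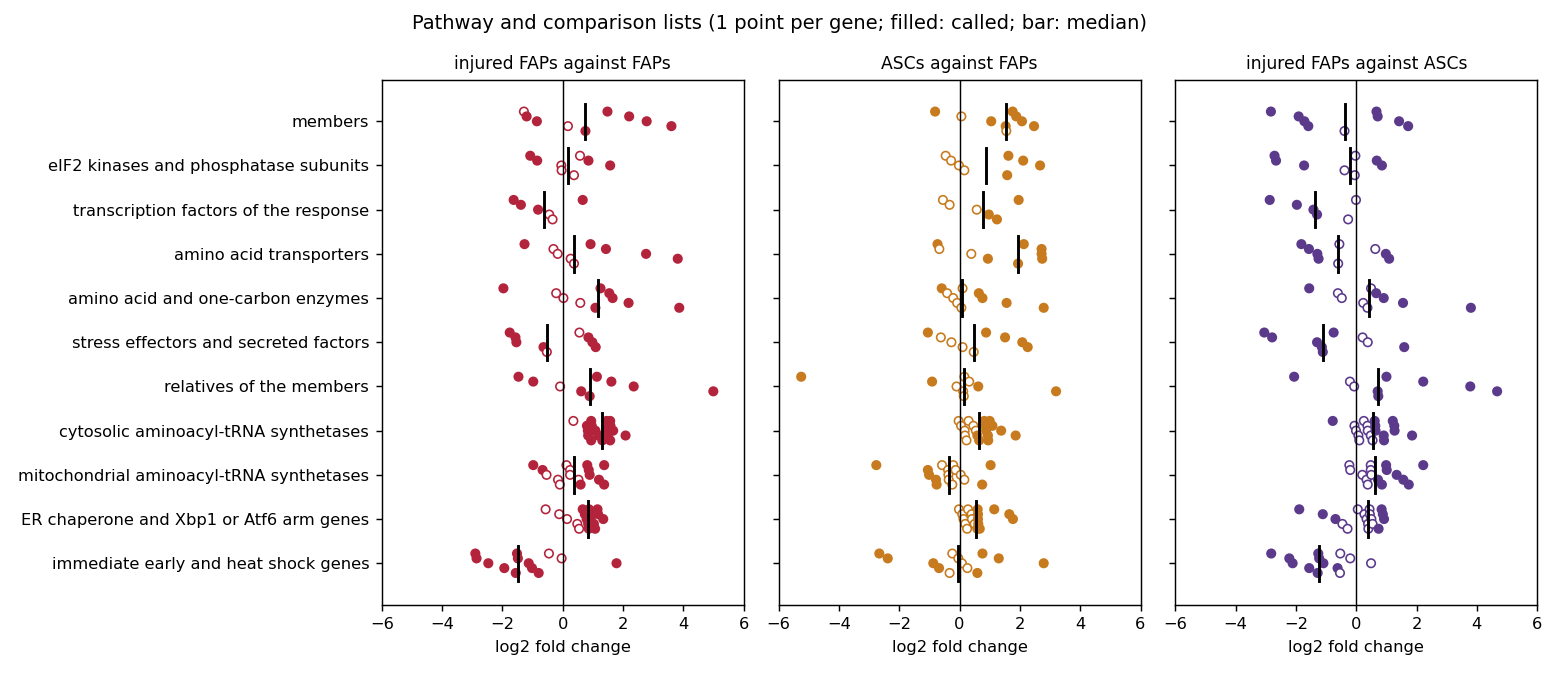
Log2 fold changes (x axis) of each gene of the members, the pathway lists and the comparison lists (y axis) in the 3 comparisons. A point is a gene, filled where called, and the bar is the median of the list. In injured FAPs against FAPs the median is 1.31 for cytosolic synthetases and −1.49 for immediate early and heat shock genes.

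Relatives of the members, and of Shmt2 and Aldh1l2 from the enzyme list, that are not named with the response were compared as well. With injury 6 of 9 rose (all genes 24.9%) and 2 fell (27.7%). Shmt1, the cytosolic counterpart of Shmt2, was 12.4 and 14.1 in FAPs and 469, 404 and 483 in injured FAPs (log2 fold change 4.99, SE 0.51, adjusted p = 1.64e-05). Mthfd1, the cytosolic folate enzyme, rose as well (2.35, adjusted p = 5.89e-06), and so did Aldh1l1 (1.61, adjusted p = 7.97e-05), Chac2 (0.89, adjusted p = 0.0133), Trib1 (1.13, adjusted p = 0.00131) and Mthfd2l, the paralog of Mthfd2 (0.61, adjusted p = 0.00691). The call of Chac2 was lost without FAP replicate 1 (0.49), and that of Mthfd2l without FAP replicate 2 (0.52), without injured FAP replicate 2 (0.57) or 3 (0.56), and with a common 75th percentile (0.56). Trib2 (−1.47, adjusted p = 1.00e-04) and Sesn1 (−0.98, adjusted p = 7.12e-04) fell, and Sesn3 was at −0.09 (adjusted p = 0.677). Trib1 was thus higher after injury, unlike Trib3, and Sesn1 lower, unlike Sesn2.

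In ASCs against FAPs 2 of 9 relatives were higher and 2 lower, near the shares over all genes (23.4% and 23.8%). Trib1 was higher (3.20, adjusted p = 1.62e-06) and Trib2, at 36.9, 26.0 and 25.1 in ASCs and 1085 and 1190.1 in FAPs, was much lower (−5.25, adjusted p = 4.51e-08). Sesn1 was lower (−0.91, adjusted p = 0.00134). Aldh1l1 was higher (0.62, adjusted p = 0.0266), a call lost under total-count scaling, with a common 75th percentile, in a fit of the 2 groups alone, and without ASC replicate 2 (0.42) or 3 (0.61) or FAP replicate 1 (0.60) or 2 (0.63). Log2 fold changes of the other relatives were 0.12 for Sesn3, 0.16 for Chac2, −0.10 for Mthfd2l, 0.14 for Mthfd1 and 0.32 for Shmt1, with adjusted p-values of 0.595 to 0.629. Of these, Chac2 passed under quantile normalization (0.71), Mthfd2l under total-count scaling (−0.67) and Shmt1 without ASC replicate 3 (0.96). For injured FAPs against ASCs, Shmt1 (4.67, adjusted p = 9.17e-06), Trib2 (3.78, adjusted p = 7.04e-08), Mthfd1 (2.22, adjusted p = 2.85e-06), Aldh1l1 (1.00, adjusted p = 8.46e-04), Chac2 (0.73, adjusted p = 0.0197) and Mthfd2l (0.71, adjusted p = 0.00132) were higher and Trib1 (−2.06, adjusted p = 8.56e-06) was lower. Sesn1 (−0.07, adjusted p = 0.708) and Sesn3 (−0.21, adjusted p = 0.282) did not pass, but Sesn1 turned to 0.63 and passed under total-count scaling. Chac2 and Mthfd2l no longer passed under quantile normalization (0.55 and 0.47), nor did Chac2 without injured FAP replicate 3 (0.68).

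Aminoacyl-tRNA synthetases load tRNAs with amino acids, and many cytosolic ones are targets of Atf4. Over all genes, 24.9% rose and 27.7% fell with injury, and 23.4% were higher and 23.8% lower in ASCs than in FAPs. The shares were 25% and 25.8% for injured FAPs against ASCs. Of 19 cytosolic synthetases 18 rose with injury and 0 fell (median log2 fold change 1.31), led by Vars (2.08, adjusted p = 1.29e-06) and Dars (1.67, adjusted p = 8.05e-06). Of 16 mitochondrial ones 7 rose and 2 fell (median 0.38), with a rise of Yars2 (1.37, adjusted p = 5.35e-05) and falls of Ears2 (−0.98, adjusted p = 9.93e-04) and Hars2 (−0.67, adjusted p = 0.00337), the latter lost without FAP replicate 2 (−0.53) and under total-count scaling (−0.54). Compared with FAPs, ASCs were higher in 11 cytosolic synthetases and lower in 0, led by Eprs (1.86, adjusted p = 1.01e-05) and Nars (1.38, adjusted p = 1.17e-04). Of the mitochondrial ones 2 were higher (Yars2 and Fars2) and 5 lower, but both higher calls were lost under total-count scaling. For injured FAPs against ASCs, 9 cytosolic and 8 mitochondrial synthetases were higher, and 1 cytosolic one, Eprs, was lower (−0.78, adjusted p = 0.00126). That call was lost under quantile normalization (−0.34) and under total-count scaling (−0.08). Mars and Mars2 were not analysed here.

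Chaperones and enzymes of the ER are controlled mainly by Xbp1 and Atf6, the other arms of the unfolded protein response. The 18 genes listed also include Xbp1, Atf6 and Ern1, which belong to these arms themselves. After injury 13 of 18 rose (all genes 24.9%) and 0 fell (27.7%), with a median of 0.85. The largest rises were in Sdf2l1 (1.34, adjusted p = 8.07e-05) and Pdia6 (1.17, adjusted p = 4.88e-06). Ddit3 and Trib3 were lower in the same libraries. For ASCs against FAPs, 9 of 18 were higher (all genes 23.4%), led by Dnajb9 (1.77, adjusted p = 2.25e-05) and Atf6 (1.65, adjusted p = 2.46e-05). For injured FAPs against ASCs, 4 of 18 were higher and 3 lower, not above the shares over all genes (25% and 25.8%). Creld2 (0.92, adjusted p = 2.93e-05) and Hyou1 (0.88, adjusted p = 2.31e-05) were among the higher ones. Dnajb9 (−1.89, adjusted p = 4.14e-06) and Atf6 (−1.11, adjusted p = 1.22e-04) were among the lower ones, and Atf6 did not pass under total-count scaling (−0.41).

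Genes that respond to cell isolation within minutes to hours also differed between the groups. Of 13 immediate early and heat shock genes, 10 were lower in injured FAPs than in FAPs and 1 higher. Summed over the list, FAP libraries held 723667 and 637917, ASC libraries from 697621 to 925970.3, and injured FAP libraries from 255960.3 to 293464. The most abundant was Fosb in ASCs, Egr1 in FAPs and Zfp36 in injured FAPs. The largest falls were those of Hspa1a (−2.90, adjusted p = 1.54e-04) and Hspa1b (−2.86, adjusted p = 1.83e-04), and Ier3 rose (1.78, adjusted p = 1.78e-04). These 10 genes were lower in the same libraries in which Ddit3, Trib3, Atf3 and Ppp1r15a were lower, and the part of cell isolation in those falls was not tested. For ASCs against FAPs, 4 were higher, led by Fosb (2.79, adjusted p = 1.28e-06) and Ier3 (1.30, adjusted p = 0.00166), and 4 lower, led by Hspa1b (−2.66, adjusted p = 3.63e-04) and Hspa1a (−2.38, adjusted p = 6.97e-04). For injured FAPs against ASCs, 9 were lower, led by Fosb (−2.82, adjusted p = 3.05e-07) and Egr1 (−2.22, adjusted p = 1.96e-06).

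**Figure D5:**
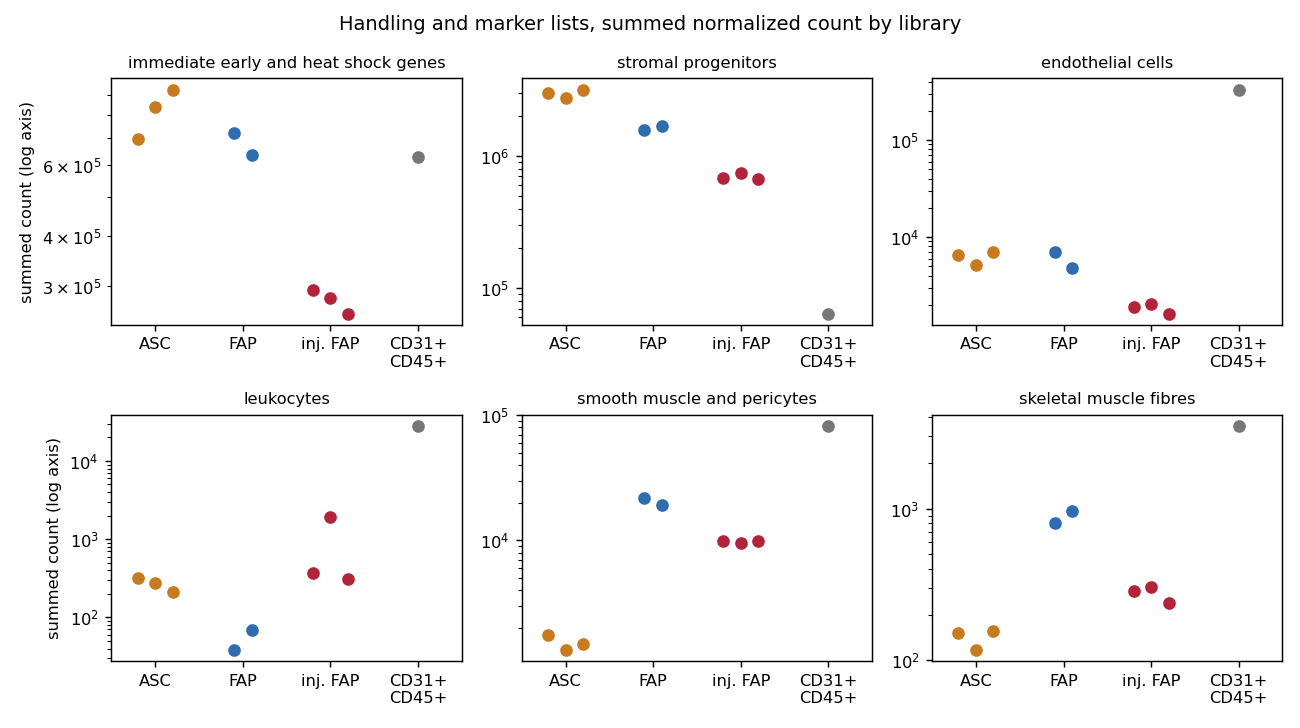
Summed normalized counts (log axis) of the immediate early and heat shock genes and of 5 lists of cell type markers, with 1 point per library, by group on the x axis. Leukocyte markers sum to 1928 in injured FAP replicate 2, against 367 and 305 in the other injured FAP libraries.

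Markers of cell types were summed in each library. Counts of markers called are to be read beside the shares over all genes given above. All 8 stromal progenitor markers were above 0 in each library, and their summed value was 1563303 and 1695784 in FAPs, 670391 or more but at most 745950.5 in injured FAPs, and from 2768805 up to 3181965 in ASCs, against 64186 in the CD31+CD45+ library. With injury 5 of the 8 fell and 1 rose, and 7 were lower in injured FAPs than in ASCs. Leukocyte markers (10 genes) summed to 38.0 and 68.7 in FAPs, where Ptprc, Lyz2, Cd74, Csf1r, Adgre1, S100a9 and Cd3e were listed at 0. They summed to 208 to 323 in ASCs, and to 367, 1928 and 305 in injured FAPs, with Csf1r the most abundant in ASCs and Lyz2 in injured FAPs. Without injured FAP replicate 2, the log2 fold change with injury was 3.64 for Psat1, 2.79 for Asns, 2.25 for Mthfd2 and 1.59 for Phgdh. In the CD31+CD45+ library, where leukocyte markers summed to 27702, endothelial markers to 330269 and smooth muscle and pericyte markers to 81645, Psat1 was 102, Asns 459.8, Mthfd2 39.2 and Phgdh 50.2, all lower than in any injured FAP library.

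Endothelial markers (10 genes) summed to 6962 and 4763 in FAPs, between 5207 and 6989.9 in ASCs and between 1629 and 2041 in injured FAPs. Tek was the most abundant in ASCs, where it made up nearly all of the sum, and in FAPs, and Cdh5 in injured FAPs. Of 9 endothelial markers tested, 5 were lower and 3 higher in ASCs than in FAPs, 5 were higher and 1 lower in injured FAPs than in ASCs, and 5 fell and 2 rose with injury, and Vwf, Emcn and Cldn5 were listed at 0 in both FAP libraries. Smooth muscle and pericyte markers (7 genes) summed to 21749 and 19243 in FAPs, at most 1755 in ASCs, and at most 9921 in injured FAPs. Among the groups tested they were highest in FAPs, as Ddit3 was, with Rgs5 and Acta2 the most abundant there and none at 0. Skeletal muscle fibre markers (8 genes) summed to 804 and 963 in FAPs, at most 304 in injured FAPs and at most 156 in ASCs. Among the groups tested they were thus also highest in FAPs, with Tnnt3 or Acta1 the most abundant. In the CD31+CD45+ library they summed to 3494. Satellite cell markers (5 genes) summed to 1121 and 1081 in FAPs, at most 2801 in ASCs and at most 4453 in injured FAPs, almost all of it Vcam1, with Pax7 at 0 in all 3 ASC libraries. That order of the groups, also the order of Psat1, Asns and Mthfd2, was the order of Vcam1 and not of the list: of the 3 markers tested, 2 were lower and 1 higher in ASCs than in FAPs, and 1 rose and 1 fell with injury. Adipocyte markers (6 genes) summed to at most 354 in ASCs, 64.9 in FAPs and 18.6 in injured FAPs, led by Plin4. The part of other cell types in the differences of the members was not tested.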

How the data were processed

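RNA was sequenced from 9 libraries. Per the study's methods, reads were aligned to mm10 with HISAT2 and counted per gene with featureCounts. The deposited values are a signal, taken here as read counts divided by a size factor per library (scaling not stated). Each library's values were whole multiples of its smallest one, within a tolerance of 0.02, so whole reads were recovered. Totals were 27481573, 27349184 and 27402102 reads (ASC), 24052508 and 24164447 (FAP), 26968235, 26698572 and 27028114 (injured FAP) and 13091077 (CD31+CD45+). A listed 0 allows up to 3 reads, worth 2.29 to 4.71, for counting error only. Genes with a mean of at least 10 over 8 libraries (13601 of 26214) were tested with limma 3.58.1 (R 4.3.3, trend) on log2(value + 1), which understates differences of genes with low values, with Benjamini-Hochberg adjustment. The members and lists were chosen with earlier results of these data known.

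Genes named were the members, their relatives and, of each other list and comparison, the called genes with the 2 largest rises and the 2 largest falls among those with a mean of at least 100, and any gene at 0 in a whole group. The 5 genes most like Atf4 were taken by Pearson r. The 21 alternatives were pseudocounts of 0.5 and 8, a minimum mean of 50, no filter, quantile normalization, a common 75th percentile, adjusted p alone, unadjusted p, only the groups compared, a replicate block, edgeR 4.0.16, DESeq2 1.42.0, each of 8 libraries left out, and total-count scaling, which was chosen after seeing the data. The CD31+CD45+ library has no replicate and was left out of the tests, and 2 empty columns were dropped.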

Additional observations from a re-analysis of the deposited data

Results flagged for a closer look

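The single CD31+CD45+ library, which entered no comparison, was above both FAP libraries for 5 of the 9 members, against 50.6% of all 13601 genes tested, so the count of members was near the share over all genes. Its endothelial markers summed to 330269 and its leukocyte markers to 27702. Atf4 was listed there at 10499, against 8824 in the higher FAP library. Trib3 was at 359 (higher FAP library 143), Chac1 at 89.5 (51.3), Asns at 459.8 (279) and Sesn2 at 439 (332). Against the injured FAPs, from muscle that also received glycerol, Asns and Sesn2 were lower there than in any injured FAP library (lowest of these 1702 and 479), while Atf4, Trib3 and Chac1 were higher than in any of them (highest 9797, 80.1 and 23.5). The immediate early and heat shock genes summed to 628278 there, against 255960 to 293464 in injured FAPs and 723667 and 637917 in FAPs. The library has no replicate and the differences were not tested.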

How the results depend on the processing

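Over the 21 alternatives the number of members called was 5 to 8 in injured FAPs against FAPs (main value 7), 6 to 8 in ASCs against FAPs (7) and 6 to 9 in injured FAPs against ASCs (8). Of the pathway genes, 23 to 32, 22 to 30 and 26 to 32 were called. With a replicate block the members called numbered 7, 8 and 8 and all genes called 7046, 6287 and 6861, while correlations between libraries of the same number, after removal of group means, were −0.0545 to 0.0446. Among the members and the genes named in each comparison, changes of sign concerned only differences that were not called with the size factors. Under total-count scaling these were Phgdh (−0.51), Sesn3 (−0.45), Chac2 (−0.40), Mthfd1 (−0.43) and Shmt1 (−0.21) in ASCs against FAPs, Ddit3 (0.31), Sesn3 (0.48) and Sesn1 (0.63) in injured FAPs against ASCs, and Sesn3 (0.04) in injured FAPs against FAPs. With a common 75th percentile they were Phgdh (−0.11), Sesn3 (−0.05) and Mthfd1 (−0.03) in ASCs against FAPs and Sesn1 (0.05) in injured FAPs against ASCs, and with quantile normalization Mthfd2l (0.26) in ASCs against FAPs. With single libraries left out, in ASCs against FAPs Phgdh ran from −0.11 to 0.20, Sesn3 from −0.06 to 0.26, Chac2 from −0.25 to 0.57, Mthfd1 from −0.11 to 0.32 and Shmt1 from −0.15 to 0.96, Sesn3 with injury from −0.21 to 0.02, and Sesn1 between injured FAPs and ASCs from −0.25 to 0.05. The signs changed for Phgdh without ASC replicate 2 (−0.11) or FAP replicate 2 (−0.08), and for the others without ASC replicate 3 (Sesn3), FAP replicate 1 (Chac2), ASC replicate 2 (Mthfd1), ASC replicate 1 (Shmt1), FAP replicate 2 (Sesn3 with injury) and ASC replicate 2 (Sesn1). The cause was not tested. Where a FAP library is left out, the lone one is assumed to vary like the other groups.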
